A study of Mus musculus with 16 samples.

Results

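Blood clotting and complement are cascades of plasma proteins, and most of those proteins are made by liver cells. The data described here cover 38 genes of these cascades in mouse liver and in inflammatory cells taken from the liver. The genes were chosen by name from a list of clotting factors, inhibitors of clotting, fibrinolysis genes and complement components. The choice of genes used no measured value, though the list was written with earlier results of these data known. The probe read for each gene was its brightest by mean signal over all 16 arrays. All 38 were found among the 21176 named genes of the array. Each was well above background and unsaturated on all 16 arrays, and each was tested in every comparison.

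Female C57Bl/6 mice were injected with 300 µg of concanavalin A. This lectin from jack beans stimulates T cells and is used to bring on acute liver inflammation. Some also received 100000 adipose tissue-derived stem cells by tail vein, either immediately or 3 h after the lectin. The stem cells had been grown from the inguinal fat of C57Bl/6 mice after collagenase digestion. RNA was measured on 1-colour Agilent whole-genome arrays, 1 sample per array.

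The samples formed 6 groups, and every animal in all of them had received concanavalin A. No mouse without concanavalin A was measured, so the levels here have no uninjured baseline. The first group held livers taken at 2 h after concanavalin A alone (mice 11, 12 and 13). Another held livers taken at 2 h from mice given stem cells immediately (mice 8, 9 and 10). The next held livers taken at 5 h after concanavalin A alone (mice 4, 5 and 6). The last liver group held livers taken at 5 h from mice given stem cells at 3 h (mice 1, 2 and 3). Both treated liver groups were therefore sampled 2 h after the stem cells. The remaining groups were hepatic inflammatory cells taken at 5 h, from mice given concanavalin A alone (samples 983 and 985) or stem cells at 3 h (samples 987 and 989). The source label of samples 983 and 985 also mentions stem cells, but their treatment and description labels do not, and they are taken as untreated. The labels do not say whether each cell sample came from 1 animal or a pool, so the tests on them measure only the spread between samples. Values below are listed in the order of the mouse or sample numbers given here. Each is a log2 level, the processed array signal relative to the 75th percentile of its array, so that 0 is the level of that percentile. Levels of different genes come from different probes and are not set against each other.

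Clotting runs through the contact factors and the factor VII branch to thrombin, which cuts fibrinogen into fibrin. Antithrombin, heparin cofactor II and protein C hold it back, and plasmin dissolves the clot. Complement starts from C1q, from mannose-binding lectins or from the alternative pathway, meets at C3 and ends in the membrane attack complex of C5 to C9. Fibrinogen and several complement proteins are acute-phase proteins, which hepatocytes make more of in inflammation under signals such as interleukin-6. C1q is an exception among the 38, since it is made mainly by macrophages and dendritic cells. Factors of the HNF1 and C/EBP families and STAT3 are known to act on promoters of such hepatocyte genes.

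The promoters of 7 members are shown because 5 of these genes changed between 2 h and 5 h (Fga, Cpb2, C8b, Klkb1 and Serpind1) and the other two (Fgb and Fgg) are the neighbours of Fga in the fibrinogen cluster. Each window is the 250 bases before the gene's start in RefSeq (GRCm38.p6), written 5′ to 3′ on the strand of the gene, with motif matches in capitals. The Fga window is chr3:83025903-83026152 on the plus strand, the Fgb window is chr3:83049864-83050113 on the minus strand, and the Fgg window is chr3:83007474-83007723 on the plus strand. The Cpb2 window is chr14:75242037-75242286 and the C8b window is chr4:104766067-104766316, both on the plus strand. The Klkb1 window is chr8:45294836-45295085 on the minus strand, and the Serpind1 window is chr16:17331121-17331370 on the plus strand.
Fga: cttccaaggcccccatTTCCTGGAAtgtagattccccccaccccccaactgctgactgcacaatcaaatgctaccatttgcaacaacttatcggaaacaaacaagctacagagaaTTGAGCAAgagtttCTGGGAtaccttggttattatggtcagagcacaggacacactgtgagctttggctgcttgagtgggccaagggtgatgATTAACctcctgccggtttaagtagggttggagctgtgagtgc
Fgb: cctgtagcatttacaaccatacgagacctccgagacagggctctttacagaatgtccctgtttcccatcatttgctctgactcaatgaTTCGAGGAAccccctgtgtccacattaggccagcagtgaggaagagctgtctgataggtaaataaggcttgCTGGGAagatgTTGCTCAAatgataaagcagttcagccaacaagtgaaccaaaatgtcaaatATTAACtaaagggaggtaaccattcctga
Fgg: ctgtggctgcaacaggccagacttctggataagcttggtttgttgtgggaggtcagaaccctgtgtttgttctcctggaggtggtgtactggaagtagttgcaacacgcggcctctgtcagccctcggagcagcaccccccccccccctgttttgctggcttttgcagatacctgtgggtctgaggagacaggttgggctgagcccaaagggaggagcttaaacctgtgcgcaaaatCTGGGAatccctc
Cpb2: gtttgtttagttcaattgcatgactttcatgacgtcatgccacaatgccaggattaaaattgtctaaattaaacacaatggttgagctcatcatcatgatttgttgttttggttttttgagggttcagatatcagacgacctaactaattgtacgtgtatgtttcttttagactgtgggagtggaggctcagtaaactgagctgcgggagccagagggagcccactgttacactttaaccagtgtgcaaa
C8b: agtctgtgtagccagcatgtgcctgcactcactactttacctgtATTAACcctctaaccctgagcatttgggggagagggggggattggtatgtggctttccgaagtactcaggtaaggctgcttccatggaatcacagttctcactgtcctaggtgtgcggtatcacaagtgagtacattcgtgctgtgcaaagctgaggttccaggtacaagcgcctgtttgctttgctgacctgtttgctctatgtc
Klkb1: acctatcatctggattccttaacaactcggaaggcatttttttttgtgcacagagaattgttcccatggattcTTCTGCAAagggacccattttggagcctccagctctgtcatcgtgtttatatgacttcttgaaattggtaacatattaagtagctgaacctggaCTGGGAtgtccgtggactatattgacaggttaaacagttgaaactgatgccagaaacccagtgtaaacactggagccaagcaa
Serpind1: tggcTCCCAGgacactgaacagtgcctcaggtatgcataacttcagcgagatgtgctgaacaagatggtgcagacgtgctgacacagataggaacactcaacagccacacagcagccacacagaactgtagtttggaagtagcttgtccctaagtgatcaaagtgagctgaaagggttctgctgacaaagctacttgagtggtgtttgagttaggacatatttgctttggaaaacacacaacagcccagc
The windows were searched for 4 motifs on both strands: TTCNNNGAA, the STAT site, CTGGGA, the interleukin-6 response element, TTGCNNAA, a C/EBP site, and GTTAAT, an HNF1 half-site. The STAT site and the interleukin-6 response element can overlap.

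The windows of Fga and Fgb each held 1 match to every one of the 4 motifs. The Fgg window held 1 interleukin-6 response element and no other match. Klkb1 had 1 interleukin-6 response element and 1 C/EBP site, Serpind1 had 1 interleukin-6 response element, C8b had 1 HNF1 half-site and Cpb2 had no match. RefSeq windows were found for 30 of the 38 members. Of these 30, 6 held the STAT site (20%, against 7.02% of all 32851 windows) and 12 held the interleukin-6 response element (40.0% against 27.0%). The C/EBP site was in 7 of the 30 (23.3% against 9.56%) and the HNF1 half-site also in 7 (23.3% against 6.43%). A match describes letters in the window and does not show binding.

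Hepatocyte markers were checked against the labels. Their summed signal over 17 genes, in multiples of each array's 75th percentile, was 6220 to 9840 in the 12 livers and 98.2 to 519 in the 4 cell samples. B cell markers went the other way, with sums of 0.77 to 3.68 in livers and 84.1 to 156 in cells. The livers of mice 10 and 13 stood apart from the other livers taken at 2 h. Their summed acute-phase signal (16 genes, none of them a member) was 1510 and 1680, against 3850 to 5970 in the other 2 h livers and 6720 to 9190 at 5 h. Each liver slide held 1 liver of each liver group, whereas all cell samples lay on a slide of their own, so tissue and slide cannot be told apart. The 2 h and 5 h livers also lay at different positions on every slide, so time and array position cannot be told apart. At 2 h all untreated livers lay at position 1 and all treated livers at position 2. Untreated cell samples lay at positions 1 and 2 and treated ones at positions 3 and 4. Stem cells and array position therefore cannot be told apart in the 2 h livers or in the cells. At 5 h, positions 3 and 4 each held livers of both groups.

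The first question was which of the 38 genes differed between 2 h and 5 h after concanavalin A. In mice given concanavalin A alone, 4 members passed the test at 5 h: Fga (the fibrinogen alpha chain) and Cpb2 rose, and Klkb1 and Serpind1 fell. Among the 14560 genes tested, 6.46% were called higher and 9.22% lower, or 15.7% in either direction. In the stem cell-treated livers, 3 members rose (Fga, Cpb2 and C8b) and 0 fell, where 8.80% of all genes were called higher, 9.68% lower and 18.5% in either direction. After quantile normalization the treated livers gave 3 higher and 1 lower (Serpind1). The members were therefore called no more often than all genes in either comparison. Without stem cells 5 members were higher at 5 h with no overlap between the groups (15.2% of all genes) and 9 lower (20.7%), and with stem cells 13 were higher (18.5%) and 3 lower (24.2%). The median member changed by -0.01 in mice given concanavalin A alone and by 0.16 in treated mice, on the log2 scale, against -0.08 for all genes in each.

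Among the fibrinogen and clotting factors, Fga had the largest change. Its log2 levels were 6.57, 6.40 and 5.83 at 2 h and 7.53, 7.04 and 7.18 at 5 h in mice given concanavalin A alone. In treated mice they were 6.05, 5.96 and 5.19 at 2 h and 7.14, 7.24 and 7.14 at 5 h. Every 5 h liver stood above every 2 h liver, and the lowest 2 h levels were those of mice 10 and 13. The rise was 0.99 ± 0.26 (log2, SE, n = 3 per group), or 1.98-fold, without stem cells (limma, adjusted p = 0.0307). With stem cells it was 1.44 ± 0.26, or 2.71-fold (adjusted p = 0.00557). Within slides 1, 2 and 3 the rise was 1.14, 0.47 and 1.35 without stem cells and 1.09, 1.95 and 1.28 with them. Leaving out mice 10 and 13, it was 0.77 and 1.17, and Fga stayed past the threshold in both comparisons. Over 17 alternatives Fga passed by limma in 10 without stem cells (adjusted p from 0.0115 to 0.11) and in 17 with them. The 2 rises were not shown to differ from each other (difference 0.45 ± 0.36, adjusted p = 1).

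The other fibrinogen chains had smaller measured changes, though the tests below did not show that these differed from that of Fga. Fgb, the beta chain, was at 10.11, 10.37 and 9.99 at 2 h and 10.80, 10.36 and 10.46 at 5 h without stem cells, where the groups overlapped. In treated livers it was at 10.42, 10.25 and 9.75 at 2 h and 11.03, 10.52 and 10.78 at 5 h, and these groups did not overlap. The changes were 0.38 ± 0.21 (adjusted p = 0.245) and 0.64 ± 0.21 (adjusted p = 0.0627), neither past the threshold. Fgg, the gamma chain, was at 9.76, 10.12 and 9.61 at 2 h and 10.48, 10.01 and 9.79 at 5 h without stem cells, and at 10.20, 9.95 and 9.66 and then 10.62, 9.99 and 10.40 with them. Both Fgg comparisons overlapped, with changes of 0.26 ± 0.24 and 0.40 ± 0.24 (adjusted p = 0.487 and 0.279). The 3 chains assemble into one protein and their genes are neighbours on chromosome 3, so their changes were set against each other within each liver. The change of Fga exceeded that of Fgb by 0.60 without and 0.80 with stem cells, and that of Fgg by 0.73 and 1.04. Each of these differences had an exact two-sided permutation p of 0.1, the smallest that 3 against 3 livers allows, and 0.175 after adjustment over the 14 differences between neighbouring genes. The probes of Fgb and Fgg reached 70.9% and 60.3% of the scanner's saturation value at their brightest and had no saturated pixel.

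Klkb1, which encodes plasma prekallikrein of the contact system, fell without stem cells. Its levels were 3.42, 3.27 and 3.63 at 2 h and 2.45, 2.98 and 2.69 at 5 h, with no overlap. The fall was -0.73 ± 0.17, or 1.66-fold lower (adjusted p = 0.0186). In treated livers it was at 3.24, 3.56 and 3.55 at 2 h and 2.93, 2.91 and 3.04 at 5 h, again without overlap, and the change of -0.49 ± 0.17 did not pass (adjusted p = 0.0674). Within slides the Klkb1 changes were -0.82, -0.44 and -0.94 without and -0.31, -0.51 and -0.64 with stem cells. F11, the contact pathway gene next to Klkb1, went the other way, with 3.82, 4.21 and 3.28 at 2 h and 4.07, 4.05 and 4.05 at 5 h without stem cells. Its groups overlapped and its change of 0.29 ± 0.21 did not pass. The change of F11 exceeded that of Klkb1 by 1.02 without and 0.74 with stem cells (exact permutation p = 0.1 for each, 0.175 adjusted).

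F7, the factor that starts clotting with tissue factor, was at 3.62, 3.70 and 3.75 at 2 h and 3.22, 3.5 and 3.11 at 5 h without stem cells. The groups did not overlap, but the change of -0.42 ± 0.16 did not pass (adjusted p = 0.109). In treated livers F7 was at 3.43, 3.72 and 4.01 and then 3.51, 3.41 and 3.47, with overlap (-0.26 ± 0.16, adjusted p = 0.308). F2, which encodes prothrombin, was nearly level. It was at 8.62, 8.99 and 8.70 at 2 h and 9.08, 8.79 and 8.64 at 5 h without stem cells (0.06 ± 0.18), and differed by 0.17 between the treated groups. F9, F10, F12, F5, F13b and Kng1, the remaining factors of this group, did not pass in either comparison. F13b, the carrier subunit of factor XIII, was lower at 5 h without overlap in both (-0.30 ± 0.13 and -0.22 ± 0.13, adjusted p = 0.141 and 0.284).

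Among the 7 inhibitors and fibrinolysis genes, Cpb2 rose and Serpind1 fell. Cpb2 encodes a carboxypeptidase that protects fibrin from plasmin. Its levels were 6.87, 7.11 and 6.80 at 2 h and 7.78, 7.38 and 7.42 at 5 h without stem cells, and 6.81, 6.78 and 6.87 and then 7.49, 7.26 and 7.57 with them. No 5 h liver overlapped with the 2 h livers. The rises were 0.60 ± 0.15, or 1.51-fold (adjusted p = 0.0273), and 0.62 ± 0.15, or 1.54-fold (adjusted p = 0.0195). On the 3 slides they were 0.67, 0.51 and 0.61 without stem cells and 0.68, 0.70 and 0.48 with them. Of the members called, Cpb2 had the closest agreement between treated and untreated mice, and its second probe gave 0.62 and 0.59.

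Serpind1 encodes heparin cofactor II, an inhibitor of thrombin. It was at 6.94, 7.28 and 7.14 at 2 h and 6.53, 6.78 and 6.38 at 5 h without stem cells, with no overlap. The change was -0.56 ± 0.15, or 1.47-fold lower (adjusted p = 0.0311). In treated livers it was at 7.03, 7.09 and 7.22 and then 6.92, 6.70 and 6.74, also without overlap, and the change of -0.32 ± 0.15 did not pass (adjusted p = 0.152). The within-slide changes were -0.75, -0.16 and -0.76 without and -0.10, -0.49 and -0.38 with stem cells, smallest on slide 2 without and on slide 1 with them. Serpinc1, which encodes antithrombin, was at 8.94, 9.34 and 9.04 at 2 h and 9.43, 9.19 and 9.05 at 5 h without stem cells, with overlap and a change of 0.11. Proc, the gene of protein C, was at 7.29, 7.42 and 7.45 and then 7.19, 7.19 and 7.08, without overlap (-0.23 ± 0.11, adjusted p = 0.191). Plg, the gene of plasminogen, was at 7.89, 8.19 and 8.00 and then 8.20, 7.87 and 7.87 (-0.05 ± 0.14). In treated livers Serpinc1, Proc and Plg differed by 0.12, -0.11 and -0.01 between the times, and none passed.

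**Figure D1:**
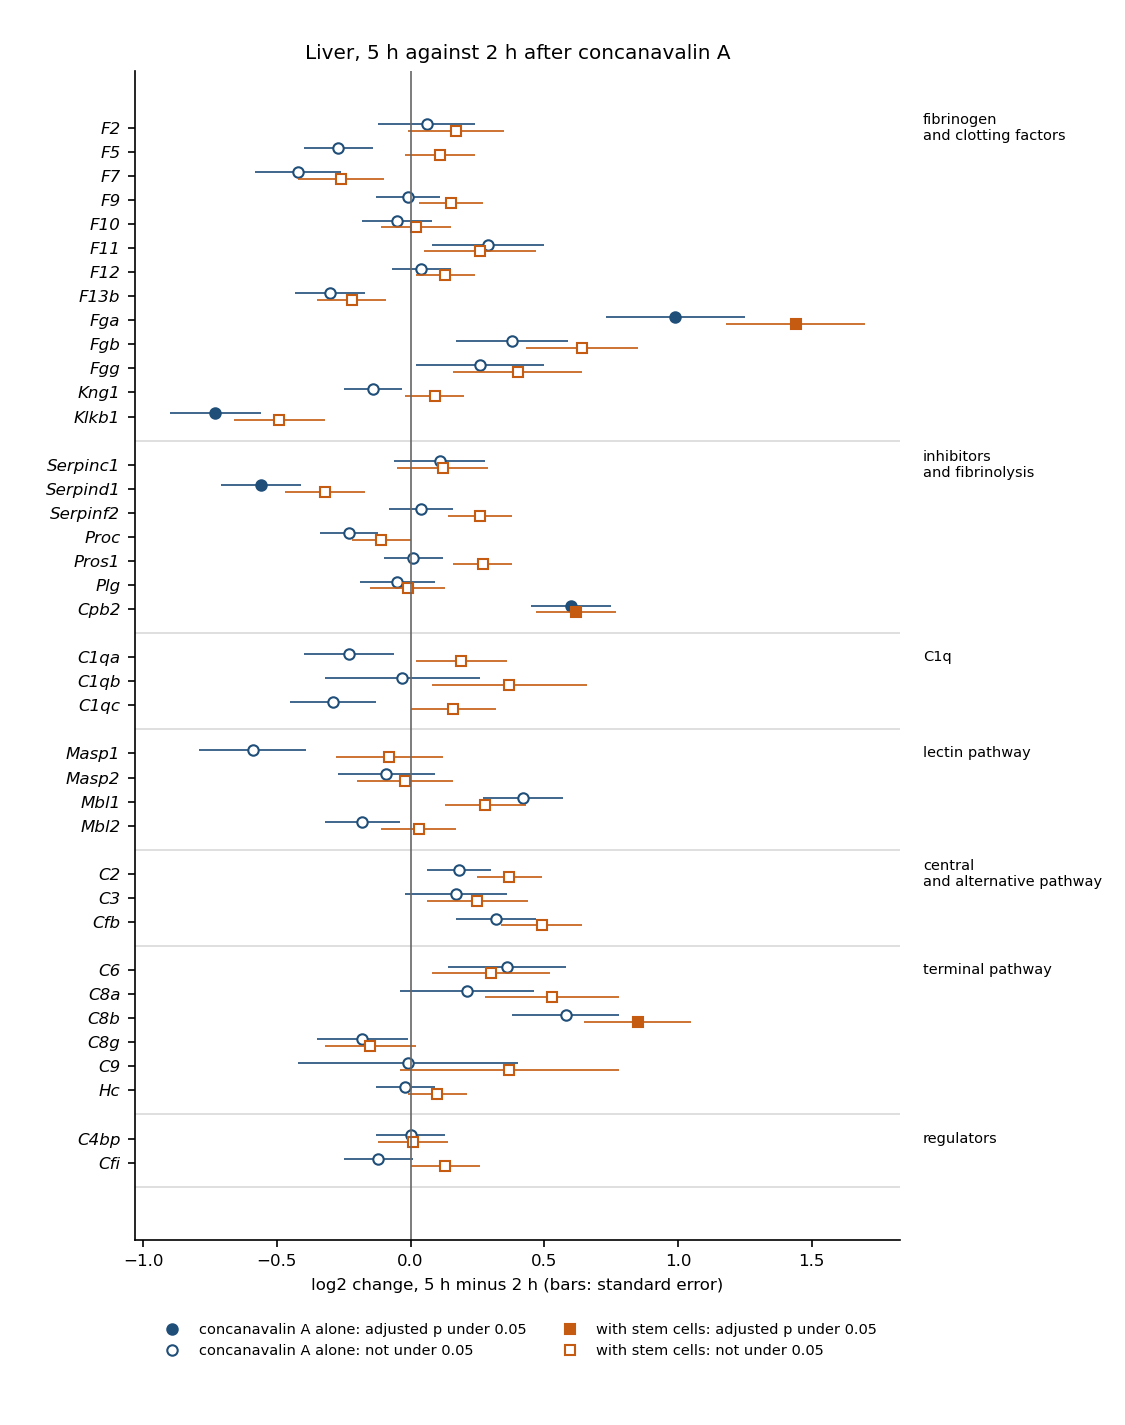
Log2 change from 2 h to 5 h (x axis) of each of the 38 genes, grouped by role (y axis), in livers of mice given concanavalin A alone (circles) and of stem cell-treated mice (squares), 3 livers per group. Bars are standard errors and filled symbols have an adjusted p under 0.05. Fga lies farthest to the right in both, Cpb2 is filled in both, and Klkb1 and Serpind1 are filled on the left without stem cells.

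Complement genes of the early steps did not pass in either time comparison. C1qa, C1qb and C1qc encode the 3 chains of C1q. C1qc was at 3.5, 3.71 and 3.86 at 2 h and 3.44, 3.45 and 3.32 at 5 h without stem cells, without overlap (-0.29 ± 0.16, adjusted p = 0.247), and differed by 0.16 between the treated groups. C1qa was at 2.83, 2.75 and 3.03 and then 2.40, 2.91 and 2.60 (-0.23 ± 0.17), and C1qb at 3.10, 2.51 and 3.25 and then 2.39, 3.21 and 3.16 (-0.03 ± 0.29). Both overlapped between the times. Of the lectin genes, Mbl2 (mannose-binding lectin C) was at 8.67, 8.74 and 8.79 and then 8.65, 8.71 and 8.31 without stem cells (-0.18 ± 0.14). Mbl1 (mannose-binding lectin A) was at 3.98, 4.18 and 3.88 and then 4.43, 4.63 and 4.23, without overlap (0.42 ± 0.15, adjusted p = 0.0796). Masp1, a protease that these lectins carry, had a change of -0.59 ± 0.20 (adjusted p = 0.0744), but its 4 probes gave -0.59, -0.23, 0.07 and 0.51, and its value is uncertain.

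At the centre of the cascade, C3 was at 10.07, 10.42 and 10.10 at 2 h and 10.66, 10.27 and 10.19 at 5 h without stem cells (0.17 ± 0.19), and differed by 0.25 between the treated groups. Its groups overlapped, and its second probe gave 0.44 and 0.80. Cfb, which encodes factor B of the alternative pathway, was at 8.18, 8.31 and 7.79 and then 8.53, 8.38 and 8.32 without stem cells, and at 7.85, 7.93 and 7.72 and then 8.40, 8.19 and 8.37 with them. The 5 h livers lay above the 2 h livers in both, and the changes of 0.32 ± 0.15 and 0.49 ± 0.15 did not pass (adjusted p = 0.186 and 0.0518). C2, the neighbour of Cfb and its counterpart in the classical pathway, was at 5.78, 5.96 and 5.76 and then 6.12, 6.03 and 5.90 without stem cells. In treated livers it was at 5.48, 5.41 and 5.67 and then 5.91, 5.81 and 5.94, without overlap. The changes were 0.18 ± 0.12 and 0.37 ± 0.12 (adjusted p = 0.338 and 0.0661).

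C8b was the member of the terminal pathway that passed. It encodes the beta chain of C8, which anchors the membrane attack complex. Its levels were 3.39, 3.42 and 3.19 at 2 h and 4.01, 4.05 and 3.68 at 5 h without stem cells, and 3.15, 3.24 and 2.77 and then 3.77, 3.67 and 4.27 with them. The times did not overlap in either pair. The rise was 0.85 ± 0.20, or 1.80-fold, in treated livers (adjusted p = 0.0161), and the change without stem cells was 0.58 ± 0.20 (adjusted p = 0.0702). Within slides the C8b changes were 0.59, 0.66 and 0.49 without and 0.62, 1.5 and 0.43 with stem cells. C8a, the alpha chain, changed by 0.21 and 0.53, and the test of C8b against C8a gave an exact permutation p of 0.2 and 0.1. Hc, the gene of C5, was at 7.35, 7.61 and 7.52 and then 7.5, 7.49 and 7.45 without stem cells (-0.02 ± 0.11). C9, the pore-forming component, was at 1.43, 0.92 and 2.22 and then 1.22, 1.78 and 1.53 (-0.01 ± 0.41). It had the highest SD of all members in 3 of the 4 liver groups, the exception being the 5 h livers without stem cells, where C1qb had it. The regulator C4bp was at 6.92, 6.91 and 6.88 and then 6.79, 7.09 and 6.84 (0.00 ± 0.13).

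**Figure D2:**
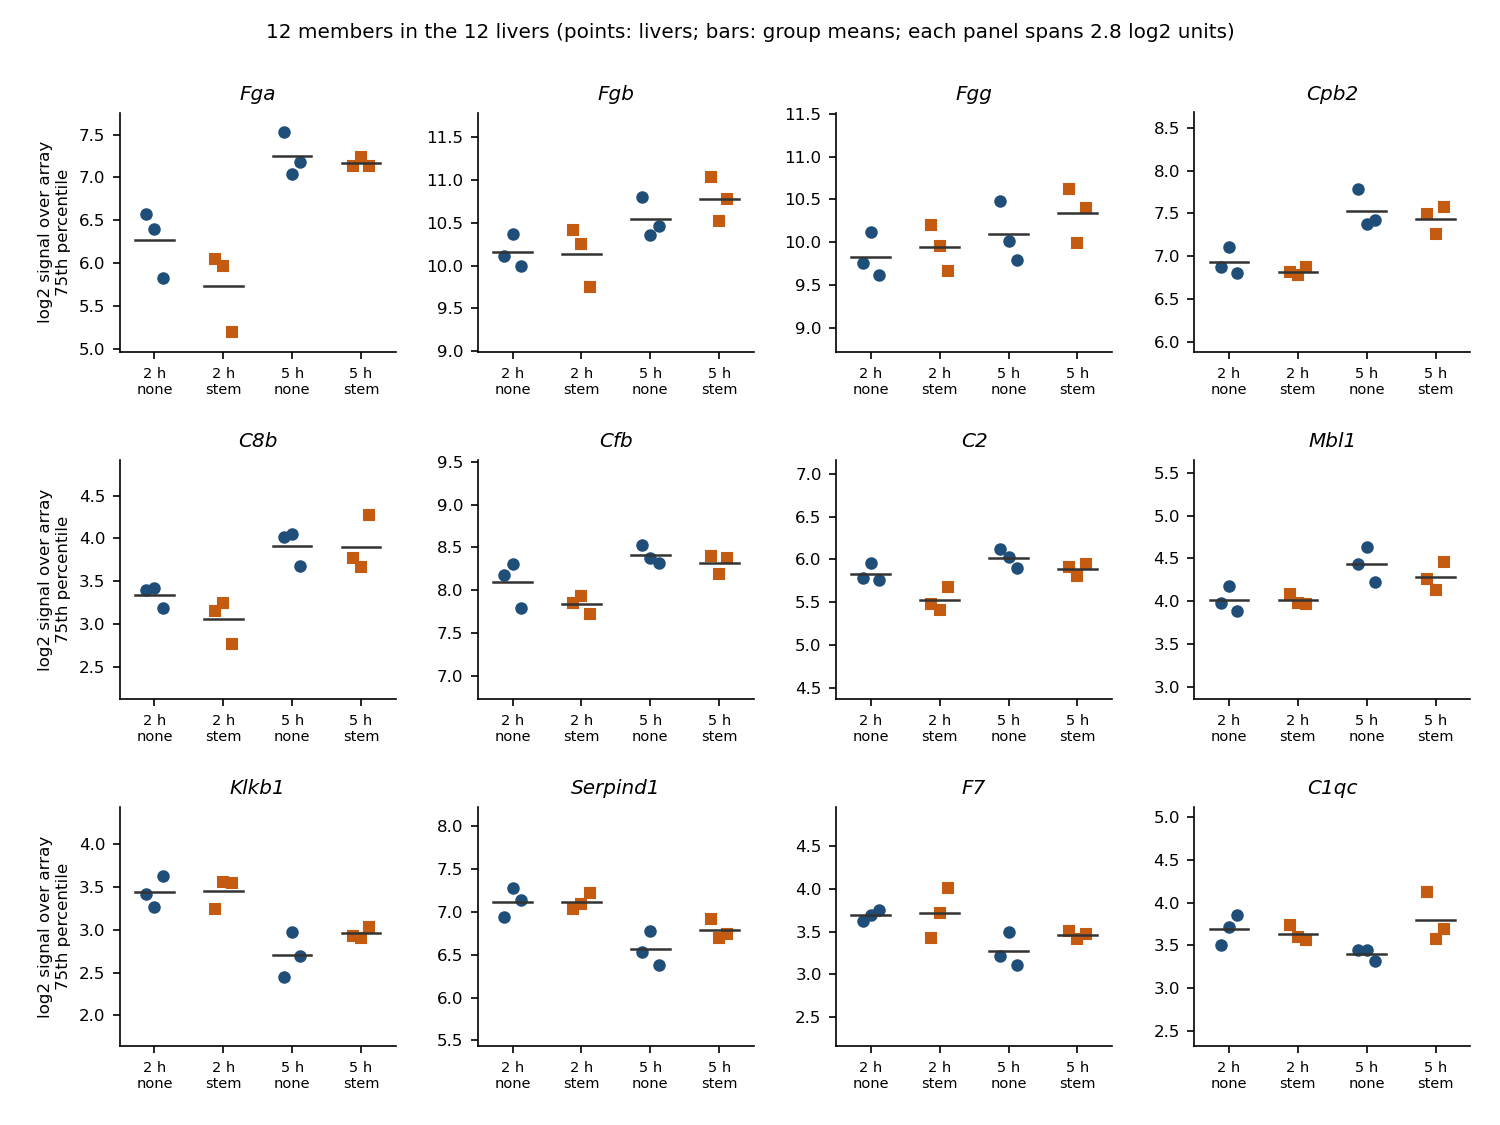
Log2 level relative to the array's 75th percentile (y axis) of 12 of the 38 genes in each of the 12 livers, by group (x axis), with bars at the group means of 3 livers. All panels span the same number of log2 units. Within each treatment, the 5 h points of Fga, Cpb2, C8b and Cfb lie above the 2 h points, and those of Klkb1 and Serpind1 lie below them.

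A contrast added after the data were seen, the mean of both time comparisons, used all 12 livers. By it 7 members rose and 3 fell (26.3% of the members), where 14.9% of all genes were called higher, 20.4% lower and 35.3% in either direction. The balance depended on the scaling, with 4 higher and 6 lower after quantile normalization and 4 higher and 0 lower with normexp background correction. The 7 were Fga (1.21 ± 0.18, adjusted p = 0.000969), C8b (0.71 ± 0.14), Cpb2 (0.61 ± 0.11), Fgb (0.51 ± 0.15), Cfb (0.40 ± 0.11), Mbl1 (0.35 ± 0.10) and C2 (0.28 ± 0.09). The 3 that fell were Klkb1 (-0.61 ± 0.12), Serpind1 (-0.44 ± 0.10) and F7 (-0.34 ± 0.12). Without mice 10 and 13, Fgb, Mbl1 and F7 did not pass, at 0.37, 0.31 and -0.25. Of the 17 hepatocyte markers 0 passed by limma in either time comparison (1 and 0 at an unadjusted p under 0.05), with medians of -0.07 and 0.03, whereas 6 and 10 of the 16 other acute-phase genes rose. The summed monocyte and neutrophil markers, without Lcn2, which is also on the acute-phase list (8 genes), were 14.6 to 100 at 2 h and 140 to 238 at 5 h. Of 9 endothelial markers, 5 fell without and 1 with stem cells (medians -0.63 and -0.29), and of 8 stellate and mesenchymal markers 3 fell in each (medians -0.84 and -0.05). The part of these cell types in the members' changes was not tested. In bulk tissue, fewer cells of a type and less RNA per cell cannot be told apart.

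Of 52 further clotting and complement genes, 46 were tested in liver. Without stem cells 2 rose (6.46% of all genes) and 2 fell (9.22%). Procr, the endothelial receptor of protein C, was at 0.02, -0.34 and -1.64 at 2 h and 1.59, 1.38 and 1.37 at 5 h (2.10 ± 0.40, adjusted p = 0.00973). Itgam, a chain of complement receptor 3, rose by 1.12 ± 0.33. Its 2 h levels of -3.89, -4.14 and -4.34 were near or below the lowest signal well above background (-4.23, -4.6 and -3.71), so the size of this rise is uncertain. Colec11, a lectin that starts complement, fell by 1.01 ± 0.23 on the log2 scale and Cd59a, an inhibitor of the attack complex, fell by 0.82 ± 0.22. In treated livers 4 rose (8.8% of all genes) and 1 fell (9.68%). F3, which encodes tissue factor, was at -0.21, -0.05 and -0.97 at 2 h and 3.08, 3.59 and 3.16 at 5 h in treated livers (3.69 ± 0.78, adjusted p = 0.0114). Without stem cells F3 was spread over 2.83, 1.34 and -1.14 at 2 h, and it did not pass there. The others called in treated livers were Procr (1.99 ± 0.40), Cd93 (1.22 ± 0.31), C1ra (0.46 ± 0.12) and Cd59a (-0.87 ± 0.22).

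The next question was whether stem cells changed these genes in liver. By limma, 0 of the 38 members passed at 2 h after immediate stem cells, and 0.0275% of all genes did. At an unadjusted p under 0.05, 2 members (C2 and Pros1) passed, where 5.60% of all genes did. At 5 h, after stem cells given at 3 h, 0 members passed (0.0343% of all genes), and 1 (C1qc) did at an unadjusted p under 0.05 (12.4% of all genes). The median member differed by -0.06 at 2 h and 0.12 at 5 h, against 0.08 for all genes in each. With normexp background correction these medians were -0.49 and 0.04, and 0 of 38 members lay above 0 at 2 h, where 9 did in the values used here. No member passed in the test of the difference between the stem cell effects at 5 h and 2 h (0.0137% of all genes). None passed there at an unadjusted p under 0.05 either, where 4.61% of all genes did. In that difference 35 of 38 members lay above 0 (53.1% of all genes), with a median of 0.16 against 0.02 for all genes. With normexp the member median was 0.53. This lean to one side was not tested.

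None of the 5 members with the smallest p at 2 h passed. C2 was at 5.48, 5.41 and 5.67 with stem cells and 5.78, 5.96 and 5.76 without (-0.31 ± 0.12, adjusted p = 0.849). Pros1, the gene of protein S, a cofactor of protein C, was at 1.99, 2.04 and 2.19 and at 2.38, 2.35 and 2.33 (-0.28 ± 0.11, adjusted p = 0.853). Neither overlapped between the groups. Fga differed by -0.53 ± 0.26, C6 by -0.42 ± 0.22 and Cfb by -0.26 ± 0.15 (adjusted p = 0.863 for each). In all, 5 members were lower with stem cells without overlap (C2, C6, Kng1, Pros1 and Serpinf2), where 3.43% of all genes were. Of the other members named in every comparison, F2, F7, F11, Fgb, Fgg, Serpinc1, Proc and Plg differed by -0.23 to 0.18 and C1qa, C1qb, C1qc, C3, C9, Hc, C4bp and Mbl2 by -0.19 to 0.16.

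At 5 h, C1qc was at 4.12, 3.58 and 3.69 with stem cells and 3.44, 3.45 and 3.32 without. The groups did not overlap, and the difference of 0.40 ± 0.16 did not pass (adjusted p = 0.366). C1qa and C1qb differed by 0.28 ± 0.17 and 0.23. The Kupffer cell and macrophage markers moved the same way, with a median difference of 0.41 over 12 genes and sums of 91.1 to 115 with and 61.0 to 96.0 without stem cells. Limma called 0 of these 12. The shift was not particular to them, with medians of 0.58 for B cell, 0.45 for endothelial and 0.44 for monocyte and neutrophil markers. Dendritic cell markers were at 0.35, stellate at 0.26, T and NK cell at 0.23, hepatocyte at 0.21 and platelet at -0.38. The part of these cell types in the C1q differences was not tested. C6 differed by -0.48 ± 0.22 (adjusted p = 0.412), Masp1 by 0.41 ± 0.20 and Serpind1 by 0.23 ± 0.15. C1qc and Kng1 were higher without overlap (12.8% of all genes). F11 was the only member lower without overlap at 5 h, at 3.72, 3.89 and 3.79 against 4.07, 4.05 and 4.05 (-0.26, adjusted p = 0.642), where 9.35% of all genes were lower without overlap. Fga, Fgb, Fgg, F2, F7, Serpinc1, Proc, Plg, C3, Cfb, C9, Hc, C4bp and Mbl2 differed by -0.12 to 0.24. Of the 46 further pathway genes 0 passed by limma in either comparison, and 2 at 2 h and 4 at 5 h had an unadjusted p under 0.05.

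**Figure D3:**
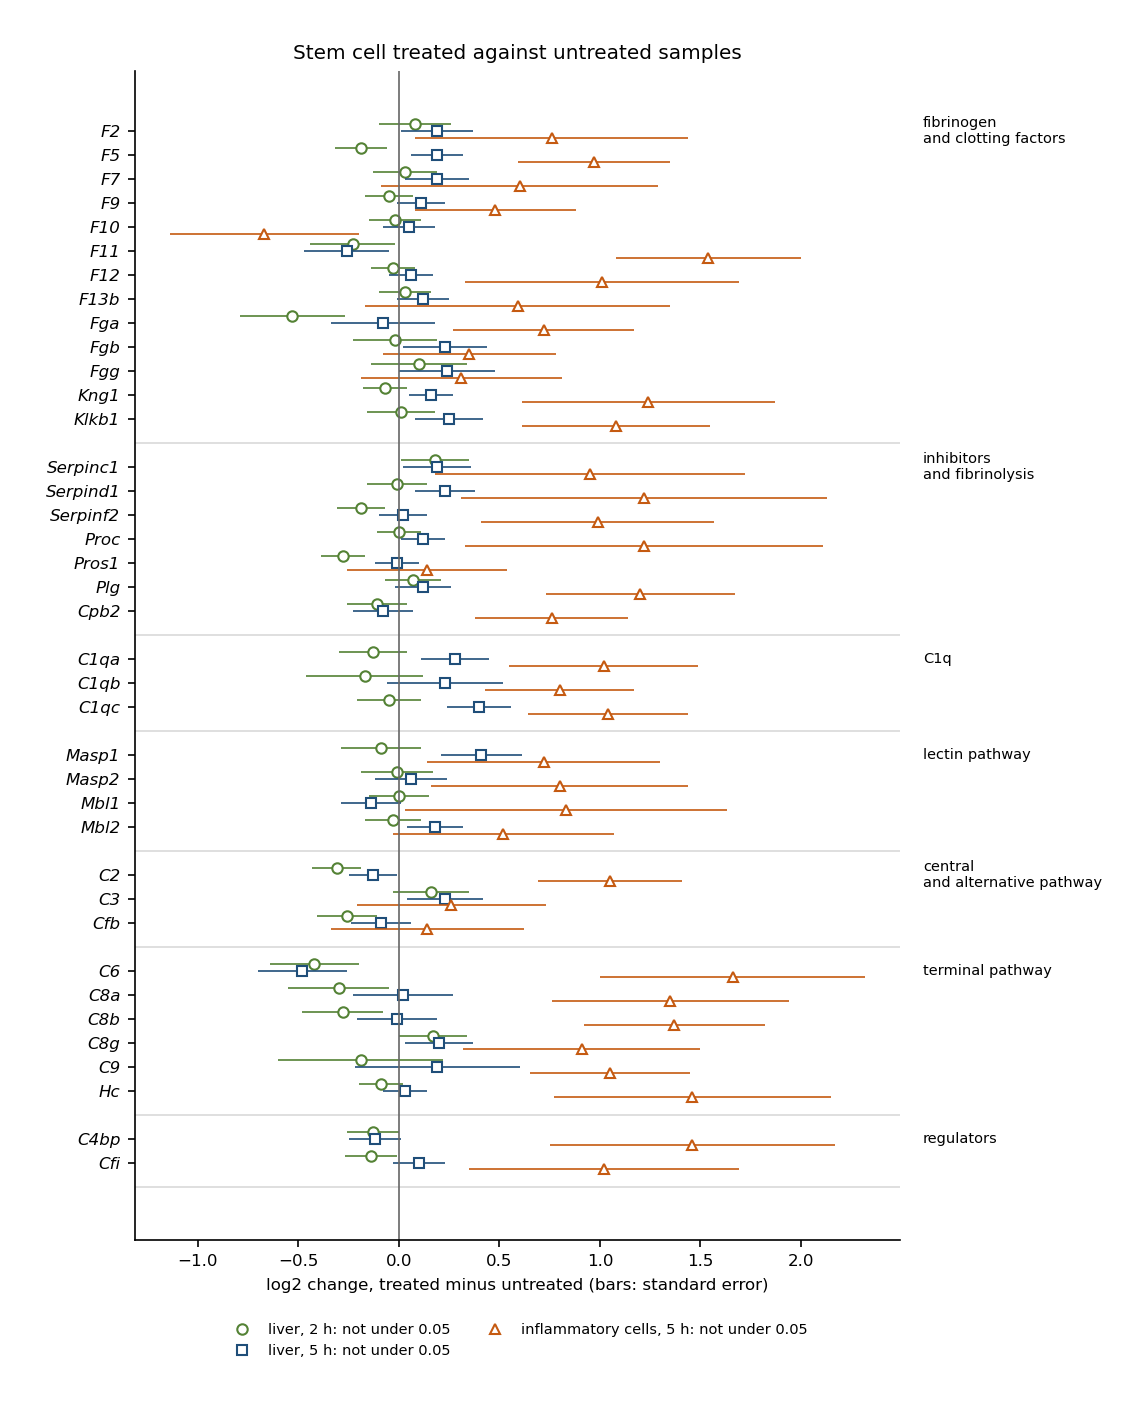
Log2 difference with minus without stem cells (x axis) of each of the 38 genes by role (y axis), in livers at 2 h, livers at 5 h (3 per group) and inflammatory cells at 5 h (2 per group), with bars as standard errors. Open symbols did not reach an adjusted p of 0.05, and all symbols are open. The inflammatory cell symbols lie mostly to the right of 0 with wide bars.

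Setting inflammatory cells against liver asked how the levels of these genes in the isolated cells compared with whole liver. Of the 38 members 35 were lower in cells than in liver at 5 h after concanavalin A alone, where 31.7% of all 16210 genes were called lower and 61.0% in either direction. With stem cells 34 were lower, where 35.5% of all genes were lower and 63.8% in either direction. The genes not called lower were C1qa, C1qb and C1qc in both comparisons and C6 with stem cells. The label hepatic thus matched higher levels in liver for 34 members in both comparisons and for C6 without stem cells, and such a difference was not shown for the C1q genes. The 35 members other than C1q were lower by 7.16- to 221-fold without stem cells, with a median of -6.09 on the log2 scale, against -0.04 for all genes. With stem cells their median was -5.23, against -0.23 for all genes.

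In the values used here F11 had the largest gap without stem cells, and Fga had it with them. F11 was at 4.07, 4.05 and 4.05 in liver and at -3.56 and -3.89 in cells without stem cells, a difference of -7.79 ± 0.31 or 221-fold (adjusted p = 3.57e-10). Those cell levels were near the lowest signal well above background, -4.66 in sample 983 and -4.94 in sample 985. Over the alternatives this F11 difference ran from -7.95 to -6.16 and that of Fga from -7.3 to -6.84, so the ranges overlapped. With stem cells F11 was at 3.72, 3.89 and 3.79 in liver and -2.72 and -1.65 in cells (-5.99 ± 0.31). Fga was at 0.20 and -0.05 in cells without stem cells, 145-fold below liver (-7.18 ± 0.33, adjusted p = 1.33e-09), and at 0.29 and 1.30 with them (-6.38 ± 0.33). Cpb2 was at 0.51 and 0.78 and then 1.13 and 1.69 in cells, or -6.88 ± 0.21 and -6.03 ± 0.21 below liver. These 3 genes had no overlap between tissues.

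The other clotting genes were also lower in cells without overlap, and those named here had smaller gaps. Fgb was at 5.18 and 5.04 in cells without and 4.98 and 5.93 with stem cells (-5.44 ± 0.29 and -5.32 against liver). Fgg was at 4.69 and 4.91 and then 4.45 and 5.76 (-5.29 ± 0.35 and -5.23). F2 was at 2.30 and 3.88 and then 3.18 and 4.51 (-5.75 ± 0.43 and -5.18). All 3 kept some signal in cells, above the 75th percentile of the array. F7 differed by -5.32 ± 0.43 and -4.91, Klkb1 by -6.20 ± 0.29 and -5.37, and F10 by -3.80 ± 0.26 and -4.52. Of the inhibitors and fibrinolysis genes, Serpinc1 differed by -5.70 ± 0.49 and -4.93, Proc by -6.13 ± 0.55 and -5.03, Plg by -6.02 ± 0.27 and -4.93 and Serpind1 by -6.09 ± 0.57 and -5.09. Pros1, known to be made by several cell types, had a smaller gap of -3.41 ± 0.20 and -3.26.

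Among the complement genes, C4bp differed by -7.08 ± 0.43 and -5.50, Hc by -6.73 ± 0.41 and -5.29, Mbl2 by -6.56 ± 0.32 and -6.22 and C8b by -6.60 ± 0.29 and -5.23. C9 differed by -5.30 ± 0.44 and -4.44, and Cfb by -5.58 ± 0.29 and -5.36. C3 was at 6.08 and 6.22 in cells without and 5.84 and 6.99 with stem cells, and its gap of -4.22 ± 0.30 and -4.19 was among the smaller ones (its second probe gave -5.63 without stem cells). C6 had the smallest gap of the 35, with 0.80, 0.91 and 0.21 in liver and -3.15 and -1.24 in cells (-2.84 ± 0.43, adjusted p = 8.12e-05). With stem cells C6 was at 0.09, -0.05 and 0.45 in liver and -0.28 and -0.80 in cells, and that difference of -0.70 ± 0.43 did not pass (adjusted p = 0.172).

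None of the C1q genes passed between the tissues. C1qa was at 2.40, 2.91 and 2.60 in liver and 1.45 and 2.60 in cells without stem cells (-0.62 ± 0.29, adjusted p = 0.0782). With stem cells it was at 3.14, 2.85 and 2.79 in liver and 2.99 and 3.09 in cells (0.12 ± 0.29). C1qb was at 2.18 and 2.73 in cells without and 3.27 and 3.24 with stem cells (-0.47 ± 0.33 and 0.10 ± 0.33 against liver). C1qc was at 3.04 and 3.28 and then 4.56 and 3.84 in cells (-0.24 ± 0.23 and 0.41 ± 0.23, adjusted p = 0.388 and 0.143). C1qc was lower in cells without overlap when no stem cells were given. A missed threshold does not show that the tissues are alike. Under quantile normalization C1qa and C1qc were called higher in cells than in liver with stem cells.

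**Figure D4:**
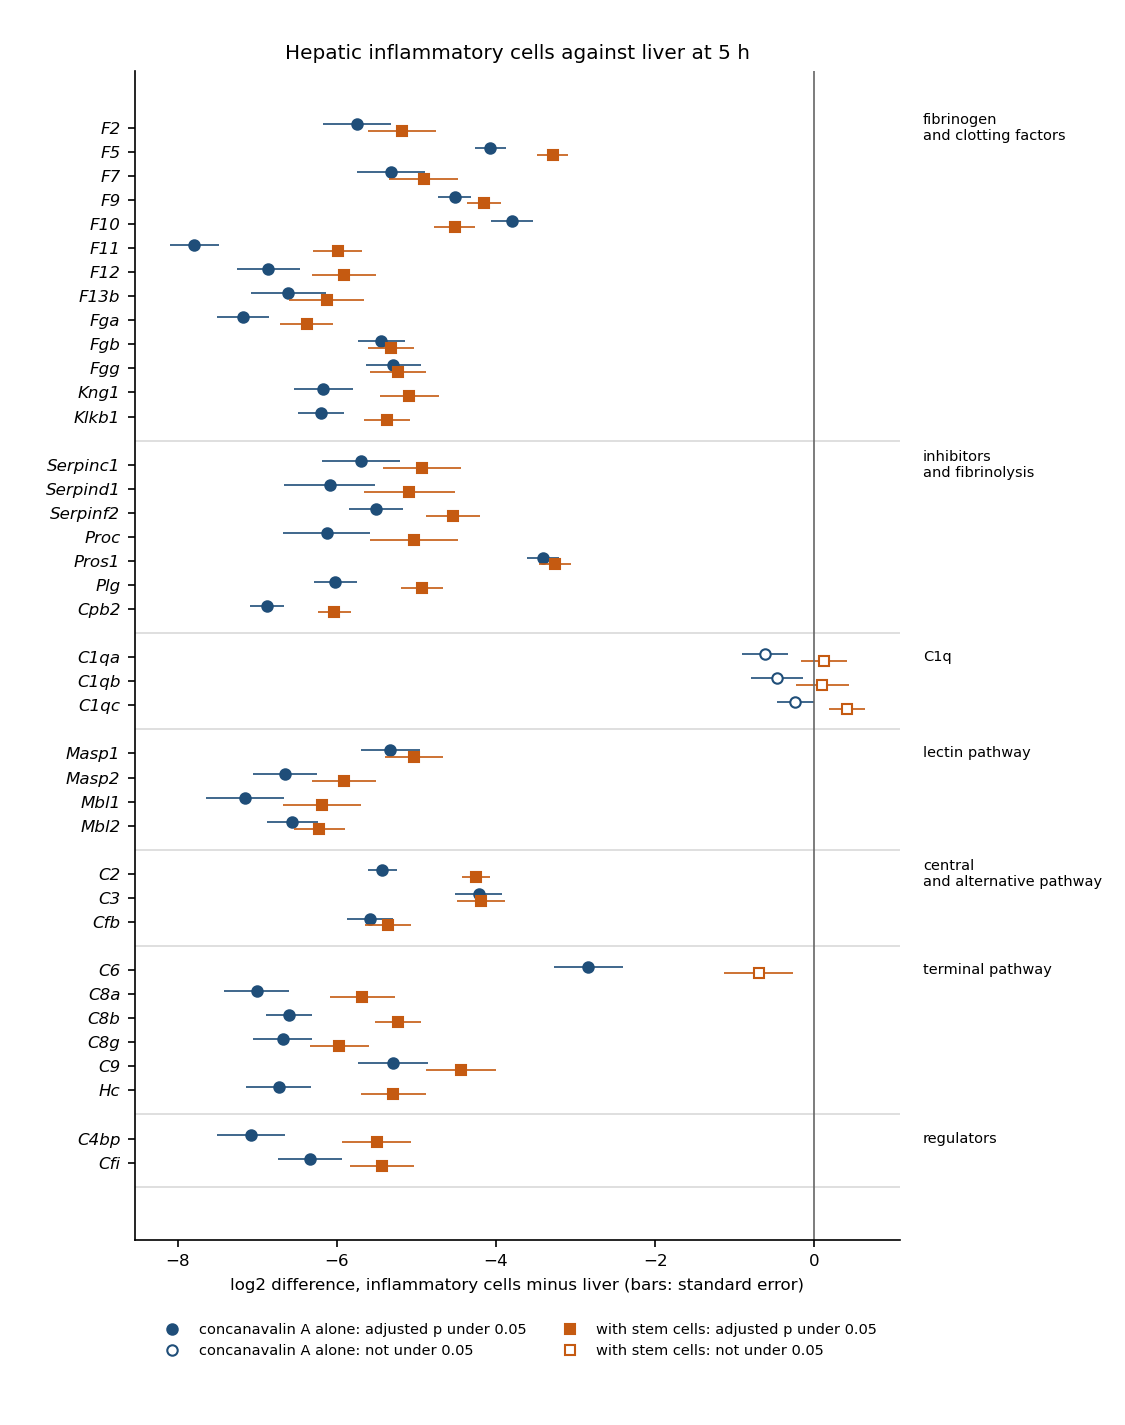
Log2 difference of inflammatory cells minus liver at 5 h (x axis) of each of the 38 genes by role (y axis), without and with stem cells (2 cell samples and 3 livers each), with bars as standard errors and filled symbols for an adjusted p under 0.05. The 3 C1q genes lie nearest to 0 without stem cells, C6 lies close to them with stem cells, and the other members lie far to the left.

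Among the further pathway genes, 47 were tested across tissues. Of these, without stem cells, 9 were higher in cells (29.3% of all genes) and 30 lower (31.7%). With stem cells 8 were higher (28.3%) and 30 lower (35.5%). The higher ones included F13a1, the catalytic subunit of factor XIII, Cr2, complement receptor 2 of B cells (6.79 without and 4.90 with stem cells, on the log2 scale), and the integrin chains of complement receptors Itgax (4.09 and 5.55), Itgam (3.49 and 4.14) and Itgb2 (3.46 and 3.72). F13a1 was well above background in 1 of 3 livers without and in 0 of 3 with stem cells, and with stem cells it was at least 108-fold higher in cells, against the lowest signal well above background. Serpina10, an inhibitor of factor X, was lower by 7.63 on the log2 scale, or 198-fold, without stem cells. F13b, which pairs with F13a1 in plasma, was lower in cells (-6.61 ± 0.47 and -6.13 ± 0.47), the opposite of F13a1.

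The last question was whether stem cells changed these genes in the inflammatory cells. By limma 0 of the 38 members passed (0.0141% of the 14166 genes tested), and 8 had an unadjusted p under 0.05, where 18.2% of all genes did. The values nonetheless lay mostly on one side, with 37 of 38 members above 0 (54.9% of all genes) and a median of 0.96 on the log2 scale against 0.09 for all genes. In 14 members both treated samples lay above both untreated ones, where 27.3% of all genes did so. The direction was shared by the hepatocyte markers, with a median of 0.95 and sums of 98.2 to 279 without and 214 to 519 with stem cells. It was also shared by the Kupffer cell and macrophage markers, with a median of 1.18 and sums of 34.3 to 74.0 without and 127 to 159 with stem cells. Other lists had positive medians too: monocyte and neutrophil 1.18 (sums of 139 to 207 without and 605 to 657 with stem cells), endothelial 0.80, B cell 0.74, dendritic cell 0.66, platelet 0.40 and stellate 0.38. The T and NK cell markers had a median of -0.03. The part of these cell types in the members' differences was not tested.

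The 5 members with the smallest p in the cells did not pass. F11 was at -2.72 and -1.65 with stem cells and -3.56 and -3.89 without (1.54 ± 0.46, adjusted p = 0.193). C8b was at -1.68 and -0.96 with and -3.06 and -2.32 without (1.37 ± 0.45, adjusted p = 0.21), and C2 at 1.54 and 1.74 with and 0.38 and 0.79 without (1.05 ± 0.36, adjusted p = 0.221). C9 was at -2.47 and -3.02 with and -3.54 and -4.05 without (1.05 ± 0.40), and C1qc at 4.56 and 3.84 with and 3.04 and 3.28 without (1.04 ± 0.40). None of these 5 overlapped between the groups. C1qa differed by 1.02 ± 0.47 and C1qb by 0.80 ± 0.37. Fga differed by 0.72 ± 0.45, Fgb by 0.35 ± 0.43, Fgg by 0.31 ± 0.50, F2 by 0.76 ± 0.68 and F7 by 0.60 ± 0.69. Serpinc1 differed by 0.95 ± 0.77, Proc by 1.22 ± 0.89, Plg by 1.2 ± 0.47, C3 by 0.26 ± 0.47, Cfb by 0.14 ± 0.48, Hc by 1.46 ± 0.69, C4bp by 1.46 ± 0.71 and Mbl2 by 0.52 ± 0.55. F10, the gene of factor X, was the member that lay below 0 (-0.67 ± 0.47). Of the further pathway genes limma called 0 of 41, and without adjustment 6 were under 0.05.

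The 2 samples of each cell group also differed from each other by about as much. Sample 985 was above sample 983 in 31 of 38 members, with a median gap of 1.15, and sample 989 was above sample 987 in 34 of 38, with a median gap of 1.04. The median member was at -0.02 in sample 983, 0.78 in 985, 1.01 in 987 and 1.89 in 989. The median hepatocyte marker ran in the same order, at 0.86, 1.72, 1.89 and 2.44. The C1q median rose from 2.18 in 983 to 2.73 in 985 and was nearly level between the treated samples, at 3.27 in 987 and 3.24 in 989. Of its genes, C1qa kept the order of the members, at 1.45, 2.60, 2.99 and 3.09, and C1qb and C1qc did not. Summed signals did not keep this order. The hepatocyte sums were 98.2 in 983, 279 in 985, 214 in 987 and 519 in 989. The member sums of 203 to 266 without and 231 to 460 with stem cells overlapped too. Leaving out 1 cell sample left a lone sample in its group. The number of members past the threshold then depended on which sample was left out, and these counts are not read.

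**Figure D5:**
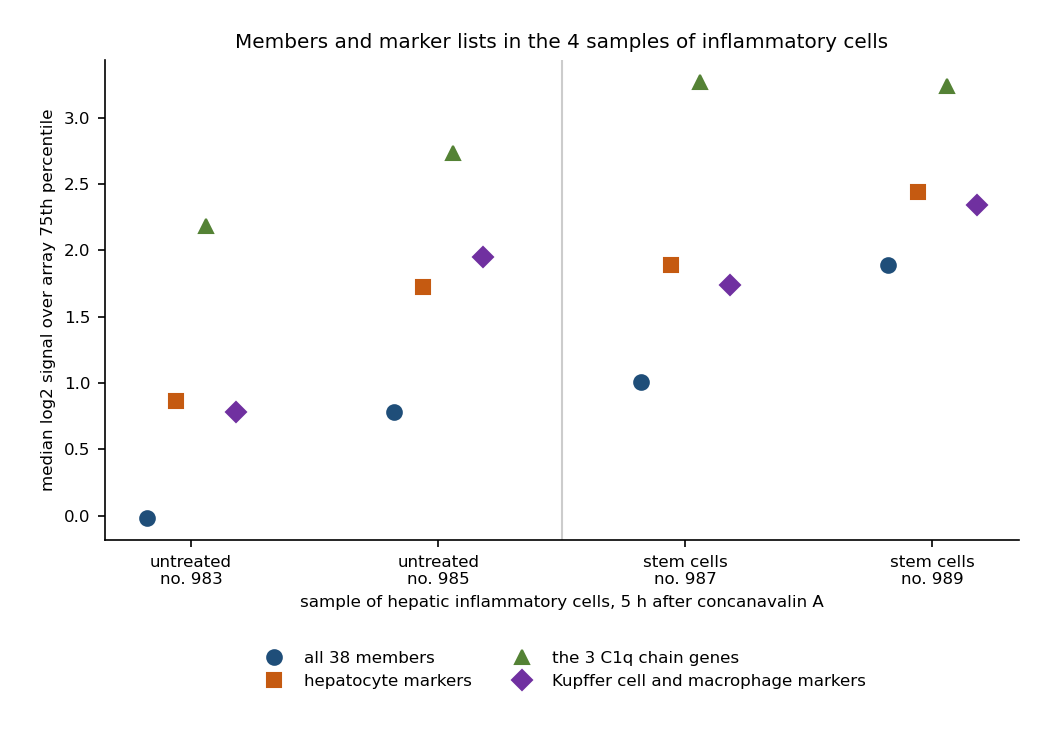
Median log2 level relative to the array's 75th percentile (y axis) of all 38 members, the hepatocyte markers, the C1q genes and the Kupffer cell and macrophage markers in the 4 samples of inflammatory cells (x axis). The members and the hepatocyte markers run in the same order from sample 983 to 989, and the C1q genes do not.

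The difference between the stem cell effects in cells and in liver at 5 h passed for 1 member, where 0.5% of all genes were called in this direction and 2.26% in either. That member was C2, the effect being -0.13 ± 0.12 in liver and 1.05 ± 0.36 in cells, for a difference of 1.18 ± 0.25 (adjusted p = 0.0297). The effects come from separate fits of livers and of cells. The difference comes from a fit of all 16 arrays with 1 shared spread per gene. The median SD of the members was 0.74 and 0.81 in the cell groups and 0.13 to 0.19 in the liver groups. The SE of the difference may therefore be too small for the cells. Over the alternatives the difference ran from 0.98 to 1.41. Leaving out any of livers 1 to 6 ended the call, as did several other alternatives given below. F11 (1.80 ± 0.44, adjusted p = 0.0539), C6 (2.14 ± 0.61, adjusted p = 0.0892) and C8b (1.37 ± 0.41, adjusted p = 0.0964) were the next by p and did not pass.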

How the data were processed

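RNA from 12 livers and 4 samples of inflammatory cells was labelled with Cy3. Per the file headers, the authors scanned 1-colour Agilent arrays and deposited Feature Extraction intensity values, background-subtracted in the processed signal. The labels state no further normalization, and the series value table held the same intensities as the authors' deposited scanner files. Here the log2 processed intensity minus each array's 75th percentile over non-control spots was used. Spots with an outlier mark were left out and repeat spots averaged. A gene was read from its brightest probe, and genes had to be well above background on 3 of 12 livers, 2 of 4 cell samples or 2 of 16 arrays across tissues. Fits used limma 3.58.1 (R 4.3.3). The livers were fitted together and the cell samples on their own. Comparisons across tissues used all 16 arrays with 1 shared spread per gene. Adjusted p-values are Benjamini-Hochberg values over all genes tested, with a threshold of 0.05. The scripts were tested on simulated data. Groups shared no replicate numbers.

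The members and all lists were chosen with earlier results of these data known. Named were members past the threshold, a fixed panel of 18 in every comparison, the 5 with the smallest p where fewer than 5 passed, and at most 6 further pathway genes past the threshold. A few others (F10, F13b, F3 without stem cells, Pros1, Masp1 and those in lists of non-overlapping members) were chosen after their values were seen. Alternatives covered background correction, scaling, filter, probe choice, slide, weights, input and leaving out samples. No proteins, and no genome of the arrays' build, were used here.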

Additional observations from a re-analysis of the deposited data

Results flagged for a closer look

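C2, the classical-pathway counterpart of factor B, differed in its stem cell effect between inflammatory cells and liver at 5 h by a test of that difference itself (limma, 1.18 ± 0.25 on the log2 scale, adjusted p = 0.0297). That test used 1 spread per gene shared by livers and cells. The members varied more between cell samples than between livers, so its SE may be too small for the cells. Both treated cell samples lay above both untreated ones, while the treated and untreated livers overlapped. Over the alternatives the C2 difference ran from 0.98 to 1.41, and leaving out any of livers 1 to 6 ended the call. It also did not pass with normexp, with no filter, with the mean of all probes, with array weights or when only the arrays compared were fitted. All cell samples lay on a slide of their own, so tissue and slide cannot be told apart.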

How the results depend on the processing

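Counts of members past the threshold moved as follows. The 4 called between 2 h and 5 h after concanavalin A alone became 0 with normexp background correction, 1 with no filter, 0 when only the arrays compared were fitted and 1 (Fga) without livers 10 and 13. The 3 called in treated livers became 5 with the mean of all probes, 9 with array weights and 6 with the slide as a block. The 10 of the mean time contrast became 4 with normexp, and the 0 of immediate stem cells became 1 with array weights. The 1 called in the difference of stem cell effects between cells and liver became 2 with quantile normalization, with the percentile taken over spots above background on all arrays, with the filter on all arrays of a group, and without livers 10 and 13. It became 0 with normexp, with no filter, with the mean of all probes, with array weights and when only the arrays compared were fitted.

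Leaving out 1 sample at a time gave 0 to 4 members without stem cells (0 without mouse 13, 4 or 6 and 2 without mouse 12), 1 to 3 in treated livers (1, Fga, without mouse 10 or 3), and 7 to 10 for the mean contrast. It gave 0 to 0 for each stem cell comparison in liver and their difference, and 0 to 6 in cells. It gave 35 to 36 and 34 to 35 for cells against liver, and 0 to 15 for the difference between tissues (15 without sample 985). The groups share no replicate numbers, so the liver groups were matched only by slide, as the block given above. Of the single-gene results, 1047 kept their side of the threshold, 18 newly passed, 90 no longer passed and 0 changed direction. Normexp moved the median of the treated time comparison from 0.16 to 0.49 and quantile normalization to 0.01, and quantile normalization turned that of the mean contrast from 0.08 to -0.07. Over all genes the median of cells against liver moved from -0.04 to 0.15 with the percentile over spots above background (no stem cells) and from -0.23 to 0.19 with normexp (stem cells). Precision is limited by 3 livers and 2 cell samples per group.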
